A study of Mus musculus with 11 samples.

Results

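Transfer RNAs (tRNAs) that carry the acidic amino acids aspartate and glutamate were examined in size-selected RNA of the mouse embryonic frontal lobe. Members were the tRNA genes whose name in the count files ends in an aspartate or glutamate anticodon, and they numbered 37 of the 433 tRNA genes counted. They comprised 16 copies of AspGTC, 13 of GluCTC and 8 of GluTTC, where each name gives the amino acid and the DNA letters of the anticodon. All embryos had the strain C57BL/6. At the later embryonic stage, E18.5, there were 4 wild-type (WT) and 4 Nsun2-/- samples, and at the earlier one, E13.5, there were 2 Nsun2-/- samples and 1 wild-type sample. Nsun2-/- embryos lack the RNA cytosine methylase NSUN2, and no treatment is given. The methods name the Nsun2 lines D014D11 and MBKW, and which of them was sequenced is not stated in the sources used here. The comparisons asked whether tRNA levels differed with the loss of NSUN2 and between the stages. Since the files count tRNA genes only, neither the tissue nor the Nsun2 deletion could be checked in them.

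A tRNA reads a codon with its anticodon and brings the matching amino acid to the ribosome. AspGTC reads both aspartate codons and carries the modified base queuosine at the first anticodon position in its mature form. GluCTC reads the glutamate codon GAG, whereas GluTTC, with a modified uridine at the same position, reads GAA. NSUN2 methylates cytosines next to the variable loop of many tRNAs, and the enzyme DNMT2 methylates a cytosine in the anticodon loop of tRNA-Asp. Loss of such methylation is known to make tRNAs easier to cleave by angiogenin. Glutamate is also the main excitatory transmitter of the brain.

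The following full-length reads, taken from the study's list of tRNA reads, show the aspartate and glutamate copies that carry most of the counts beside some of their relatives. They are written 5′ to 3′ with the anticodon in capitals, and each includes the CCA tail that is added to mature tRNAs. The first is an AspGTC read listed for a copy without a single count, and the next 2 belong to the AspGTC copies with the most counts. The fourth belongs to the main GluCTC copy, and the last 2 stand for both types of GluTTC.
chr1.trna994-AspGTC: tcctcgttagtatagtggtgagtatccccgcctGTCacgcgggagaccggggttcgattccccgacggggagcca
chr10.trna856-AspGTC: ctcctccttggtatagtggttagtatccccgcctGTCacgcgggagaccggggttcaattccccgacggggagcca
chr13.trna84-AspGTC: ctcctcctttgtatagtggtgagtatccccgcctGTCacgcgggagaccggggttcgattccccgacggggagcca
chr10.trna81-GluCTC: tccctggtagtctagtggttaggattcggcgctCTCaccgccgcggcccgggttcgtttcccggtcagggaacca
chr13.trna105-GluTTC: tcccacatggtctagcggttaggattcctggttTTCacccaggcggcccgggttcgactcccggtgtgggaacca
chr1.trna1547-GluTTC: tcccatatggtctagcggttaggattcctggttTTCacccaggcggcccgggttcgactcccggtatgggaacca

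Positions were numbered so that the anticodon stands at 34 to 36. Against the first of these reads, that of chr1.trna994-AspGTC, the read of chr10.trna856-AspGTC differed by G6C, A9G, G20T and G56A, and the read of chr13.trna84-AspGTC differed by G6C and A9T. Positions 6 and 9 cannot mark a copy, because among the 12 other AspGTC copies with full-length reads listed, 6 had more than 1 base at position 6 and 7 had more than 1 base at position 9. The change at position 56, in the loop near the 3′ end, was listed for 1 copy only. Its letters TTCAATT occurred in 3 of the 8 reads listed for chr10.trna856-AspGTC and in no read of the other 13 AspGTC copies with listed reads, all of which had a read with TTCGATT. The GluTTC reads differed by C6T and G66A. The read shown for chr10.trna81-GluCTC was also the representative read of 6 other GluCTC copies. That of chr13.trna84-AspGTC was also the one of chr11.trna397-AspGTC and, but for a shorter 5′ end, of chr1.trna1000-AspGTC. The read of chr13.trna105-GluTTC was also the one of chr7.trna337, chr14.trna347 and chr9.trna961. These copies could therefore not be told from their relatives by the reads shown. Bases of a read can differ from the gene where the tRNA is modified.

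The counts were reads that bowtie placed at a single best position in the genome, assigned to tRNA genes without regard to strand. Reads with more than 1 best position were therefore lost, and the count of a copy is not its expression level. Fragments and full-length tRNAs were counted together. The read shown for chr10.trna81-GluCTC was listed for other copies too, yet this copy held 3208 counts, and this was not resolved. Totals ranged from 4011 to 9827 counts per sample. A copy with 0 counts could hold a share of up to 0.0305% to 0.0748% of the counts of a sample, the limit set by 3 counts. This limit and the intervals cover counting error only. Within E18.5 Nsun2-/-, samples 1 and 2 (chi-square test over genes, p = 0.93) and samples 2 and 3 (p = 0.86) differed by less than the sampling noise. The methods call all samples independent biological replicates and no pair of files was identical, so they were kept apart. An alternative with the closest samples merged joined Nsun2-/- samples 1 and 2, and wild-type samples 3 and 4 of E18.5 (chi-square test over genes, p = 0.41). Nsun2-/- sample 3 stayed apart in it.

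Aspartate and glutamate tRNAs together held 5414 of 62885 counts (8.61%). GluCTC, with 3421 counts (5.44%), ranked 5 among 53 isoacceptor families, whereas AspGTC ranked 14 with 1613 counts (2.56%) and GluTTC ranked 41 with 380 counts (0.604%). These ranks compare reads that could be placed at a single position, and all 37 counted intervals had the same length of 112 nt.

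Counts were distributed very unevenly among the copies. Of the 37 genes, 13 (35.1%) had no count in any of the 11 samples, compared with 105 of the other 396 tRNA genes (26.5%), and 14 had counts in every sample. Copies without counts were 5 of AspGTC (chr5.trna1609, chr2.trna510, chr1.trna994, chr1.trna997 and chr11.trna69), 6 of GluCTC and 2 of GluTTC (chr3.trna286 and chr3.trna754). Reads were listed by the study for 6 of these 13 copies, so a count of 0 does not show that a copy was silent.

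A single gene, chr10.trna81-GluCTC (chr10:30530926-30531037, plus strand), held 3208 counts, which is 93.8% of GluCTC and the second highest count of all tRNA genes. The next GluCTC copies, chr11.trna1912 and chr1.trna709, had 83 and 55 counts. For AspGTC, chr10.trna856 (chr10:90644822-90644933, minus strand) had 664 counts (41.2%) and chr13.trna84 (chr13:22003162-22003273, plus strand) had 550 (34.1%). The third AspGTC copy, chr10.trna851, had 104. Positions are those of the files, whose header names a tRNA annotation of mm9. No single GluTTC copy dominated: chr14.trna359 led with 95 counts (25.0%), followed by chr13.trna105 with 85 and chr7.trna337 with 60.

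**Figure D1:**
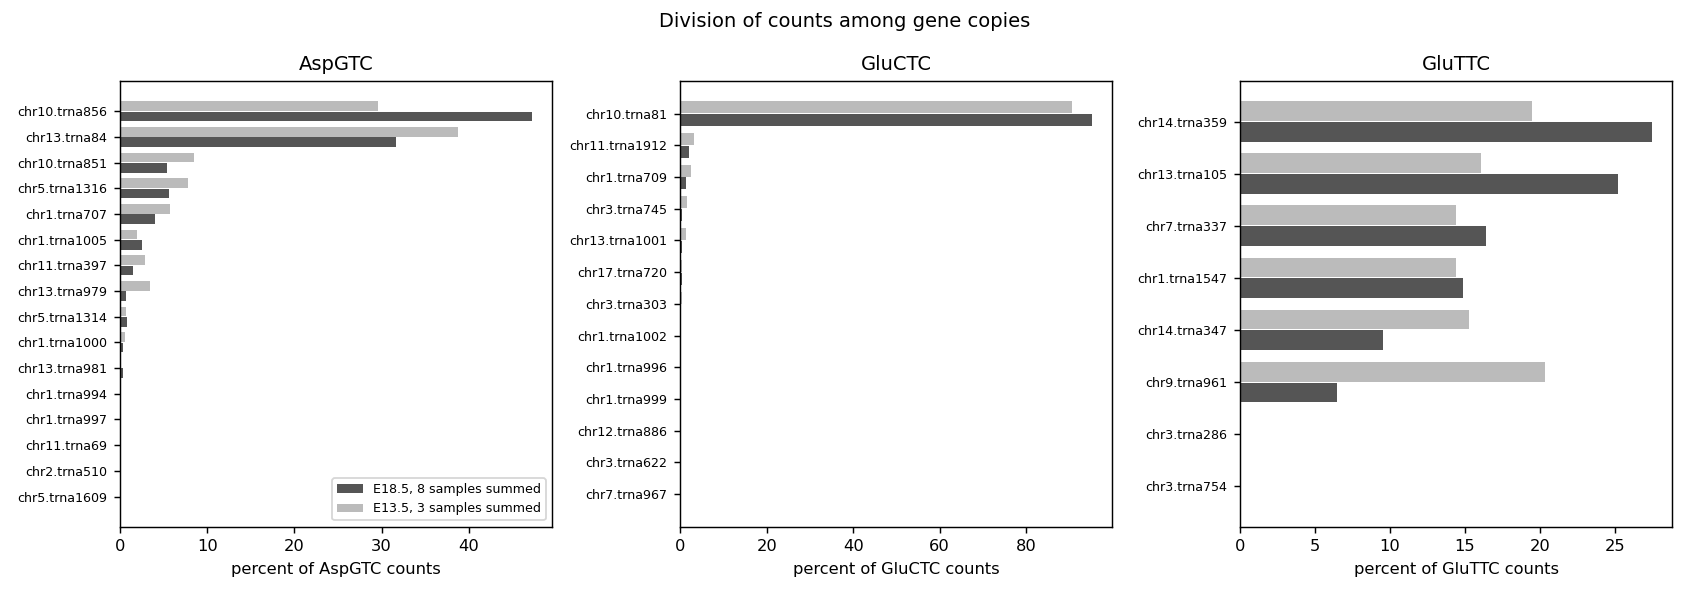
Horizontal bars give each copy's percent of its isoacceptor's counts, summed over the 8 samples at E18.5 (dark) and the 3 samples at E13.5 (light), for AspGTC, GluCTC and GluTTC. A single copy holds over 90% of GluCTC at both stages, 2 copies lead AspGTC, and the 6 GluTTC copies with counts share them more evenly.

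Of the 3 copies with the most counts, chr10.trna81-GluCTC and chr10.trna856-AspGTC had no other member nearby, whereas chr13.trna84-AspGTC lay close to 2 AspGTC copies with 26 and 4 counts. With members joined when they lay within 50000 nt, 21 stood alone. They held 4546 counts, 3208 of them in chr10.trna81-GluCTC, and 6 of the 13 copies without counts. The other 16 fell into 4 groups that held 868 counts and 7 of the copies without counts. The largest group spanned 66126 nt of chromosome 1 (chr1:172967140-173033265) with 5 AspGTC and 4 GluCTC copies. It held 173 counts, and 5 of its 9 copies had none.

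GluTTC copies were divided into 2 types by the base at position 66, close to the 3′ end, in most of their listed reads. The division was not clean, since of the reads listed for chr1.trna1547-GluTTC 5 had the letters of its own type and 1 had those of the other. The type of chr1.trna1547, with 2 copies, held 151 counts (39.7%), and the type of chr13.trna105, with 4 copies, held 229 (60.3%). The share of the former type lay between 36.4% and 44.6% in the E18.5 wild-type samples and between 42.3% and 50.0% in the E18.5 Nsun2-/- samples, and these ranges overlapped.

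Next, the genotypes were compared at E18.5. None of the 3 isoacceptors differed between Nsun2-/- and wild-type brains beyond the spread between samples. AspGTC, the only aspartate family counted, made up 2.62%, 2.40%, 2.62% and 2.53% of all tRNA counts in the wild-type samples and 2.83%, 2.82%, 2.78% and 2.17% in the Nsun2-/- samples. Thus 3 of the 4 Nsun2-/- samples lay above every wild-type sample and 1 lay below all of them. The fitted log2 fold change was 0.07 (SE 0.10, edgeR quasi-likelihood test, adjusted p = 0.75), and without Nsun2-/- sample 4 it was 0.20 (adjusted p = 0.17). In bulk tissue, fewer cells with a tRNA and less of it per cell cannot be told apart.

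GluCTC was the most abundant of the 3, with 5.55%, 6.75%, 5.58% and 6.28% in wild-type and 5.47%, 4.96%, 5.61% and 6.33% in Nsun2-/- samples. The groups overlapped, and the log2 fold change was -0.11 (SE 0.09, adjusted p = 0.56 by edgeR), with values from -0.15 to -0.03 when single samples were left out. The rarer GluTTC took 0.54%, 0.97%, 0.73% and 0.56% in wild-type and 0.58%, 0.51%, 0.52% and 0.70% in Nsun2-/- samples. Here wild-type sample 2 stood highest with 56 counts, while the other 7 samples had between 24 and 40. The log2 fold change of GluTTC was -0.29 (SE 0.21, adjusted p = 0.48 by edgeR), and without that sample it was -0.08 (adjusted p = 0.80).

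Thus 0 of the 3 isoacceptors were called at E18.5, at an adjusted as well as at an unadjusted p below 0.05, by edgeR and by DESeq2, where 13.3% of the 45 families tested were called by edgeR. Per copy, 4 of the 37 members had enough counts to be tested and 0 were called (0 also at an unadjusted p below 0.05 and by DESeq2), with 9.43% of the 106 genes tested called. These were chr13.trna84-AspGTC (log2 fold change 0.24, SE 0.15), chr10.trna856-AspGTC (-0.15, SE 0.12), chr10.trna81-GluCTC (-0.09, SE 0.09) and chr14.trna359-GluTTC (0.17, SE 0.36).

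**Figure D2:**
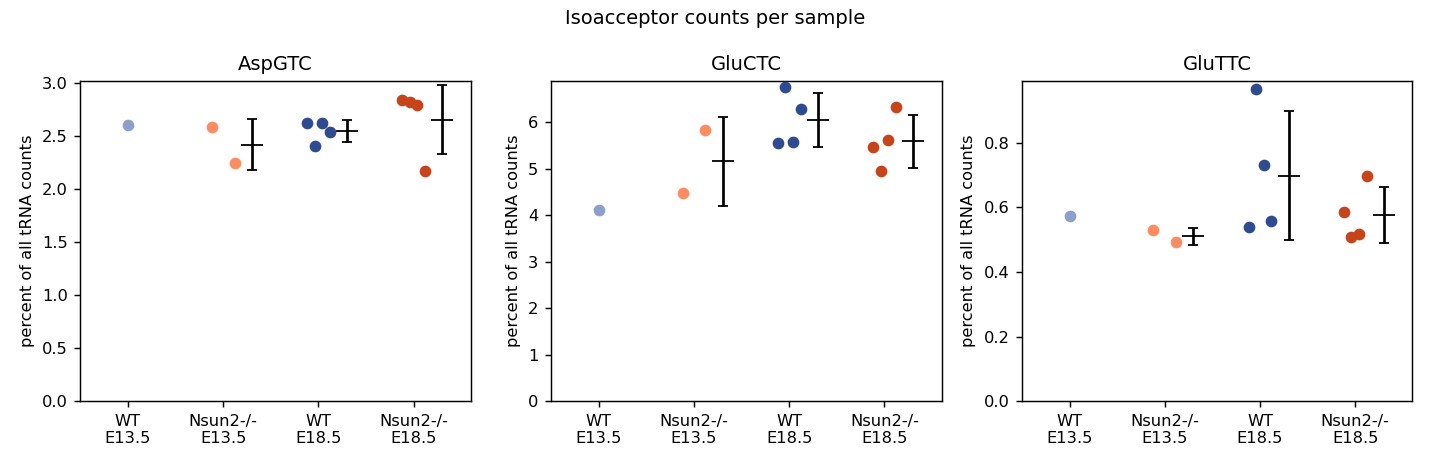
Points give the percent of all tRNA counts in each sample for AspGTC, GluCTC and GluTTC, by genotype and stage, and black bars give the mean ± SD where a group has more than 1 sample. Genotypes overlap in all 3 panels at E18.5, and E13.5 samples lie low for GluCTC except for 1 Nsun2-/- sample at 5.84%.

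Ratios between isoacceptors do not depend on the other tRNAs. GluCTC reads exceeded GluTTC reads 10.3-, 6.98-, 7.62- and 11.3-fold in the E18.5 wild-type samples and 9.35-, 9.75-, 10.8- and 9.07-fold in Nsun2-/- samples. All 4 Nsun2-/- values thus fell inside the wild-type range. The mean log2 ratio was 3.15 ± 0.33 in wild-type and 3.28 ± 0.11 in Nsun2-/- (SD, n = 4 each, two-sided exact permutation test, p = 0.46). The difference of 0.13 ranged from 0.02 to 0.25 when single samples were left out and was 0.36 without the top copy of each isoacceptor (exact permutation p = 0.26). At E13.5 the ratio was 7.18 in the wild-type sample and 8.48 and 11.9 in the Nsun2-/- samples. The main copy held 93.8% of GluCTC counts, whereas the leading GluTTC copy held 25.0% of GluTTC counts. Leaving out the top copies therefore had to lower the ratio. The read shown does not tell the main GluCTC copy from its relatives. Without the top copy of each isoacceptor, the ratio lay between 0.39 and 1.23 over the 11 samples, and GluCTC no longer exceeded GluTTC in 9 of them.

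The ratio of AspGTC to both glutamate tRNAs was 0.43, 0.31, 0.41 and 0.37 in E18.5 wild-type and 0.47, 0.52, 0.45 and 0.31 in E18.5 Nsun2-/- samples. Again 3 Nsun2-/- samples lay above the wild-type samples and sample 4 lay with the lowest of them (mean log2 ratio -1.22 ± 0.33 against -1.40 ± 0.21, exact permutation p = 0.40). The difference of 0.18 was 0.34 without Nsun2-/- sample 4 (exact permutation p = 0.057), 0.09 without Nsun2-/- sample 2 or without wild-type sample 2, and 0.58 without the top copy of each isoacceptor (exact permutation p = 0.086). All aspartate and glutamate tRNAs together made up 9.28% ± 0.62 of the counts in wild-type and 8.82% ± 0.38 in Nsun2-/- samples (SD, n = 4 each, exact permutation p = 0.29). After adjustment over the 6 values compared, p was 0.55 for each of these 3 values.

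**Figure D3:**
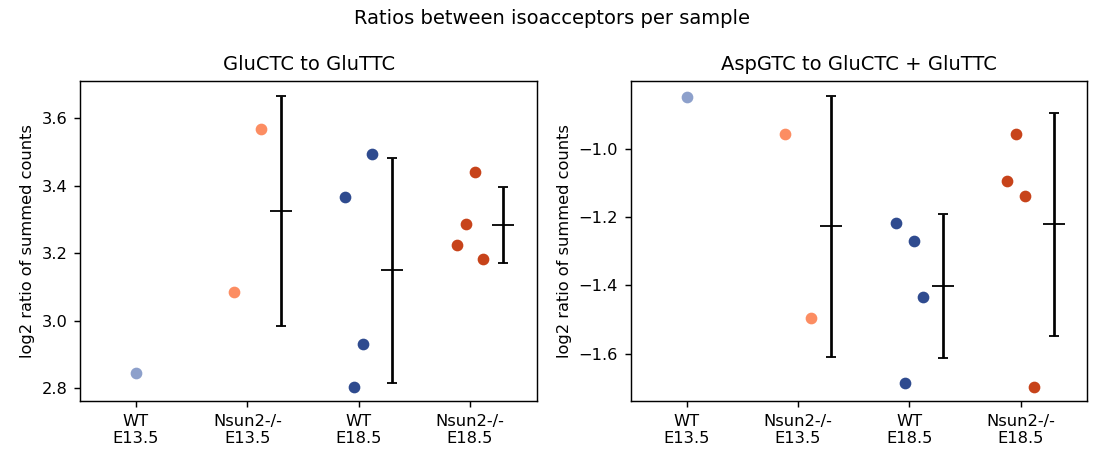
Points give the log2 ratio of summed counts in each sample, GluCTC to GluTTC on the left and AspGTC to both glutamate tRNAs on the right, with mean ± SD in black where a group has more than 1 sample. The groups overlap in both panels, and the wild-type samples at E18.5 spread more widely in the left panel than the Nsun2-/- samples.

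The division of counts among copies was then compared. In E18.5 wild-type brains chr10.trna856 held 53.2%, 57.6%, 49.0% and 44.0% of AspGTC counts. In Nsun2-/- brains it held 42.1%, 42.9%, 42.9% and 44.8%. One Nsun2-/- sample exceeded the lowest wild-type sample and the others lay below all of them. The means were 50.9% ± 5.8 and 43.2% ± 1.2 (SD, n = 4 each), and the difference did not pass the test (exact permutation p = 0.057, adjusted p = 0.26 over 6 values compared). The leading GluTTC copy chr14.trna359 held 32.7% ± 4.7 of GluTTC in Nsun2-/- and 23.0% ± 6.3 in wild-type samples (exact permutation p = 0.086, adjusted p = 0.26), on 5 to 16 counts per sample. The main GluCTC copy held 95.2% ± 1.1 and 95.2% ± 1.6 in these groups (exact permutation p = 1). With 4 against 4 samples this test cannot give a p below 0.0286.

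At E13.5 the genotypes could be compared only through a fit that took the spread from all 11 samples, since there was 1 wild-type sample. GluCTC took 4.11% in that sample and 4.49% and 5.84% in the Nsun2-/- samples, so both Nsun2-/- samples were higher. The log2 fold change of GluCTC was 0.38 (SE 0.17) and did not pass the adjustment (edgeR, adjusted p = 0.29). It came mainly from Nsun2-/- sample 2, since it was 0.60 without sample 1 and 0.18 without sample 2. Each of these fits set 1 Nsun2-/- sample against 1 wild-type sample at E13.5, so only the size of the difference is given. AspGTC (2.60% against 2.58% and 2.24%) and GluTTC (0.57% against 0.53% and 0.49%) had log2 fold changes of -0.02 (SE 0.16) and -0.08 (SE 0.33). Of the 3 isoacceptors 0 were called by edgeR or DESeq2 and 1 had an unadjusted p below 0.05 by each tool (GluCTC), with 0% of the 47 families called by edgeR and 14.9% at an unadjusted p below 0.05. None of the 9 copies tested was called (0 also at an unadjusted p below 0.05 and by DESeq2), with 0% of the 155 genes called.

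The genotype difference of GluCTC changed sign between the stages, but the change did not pass the adjustment (log2 difference -0.47, SE 0.20, edgeR, adjusted p = 0.20). The corresponding values were 0.12 (SE 0.19) for AspGTC and -0.18 (SE 0.38) for GluTTC, so that 0 of the 3 were called by edgeR or DESeq2 and 1 had an unadjusted p below 0.05 by each tool. Over the 47 families edgeR called 4.26%, and 14.9% at an unadjusted p below 0.05. Among the copies tested, 0 were called by edgeR or DESeq2 and 0 had an unadjusted p below 0.05 by edgeR, with 0.645% of genes called.

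**Figure D4:**
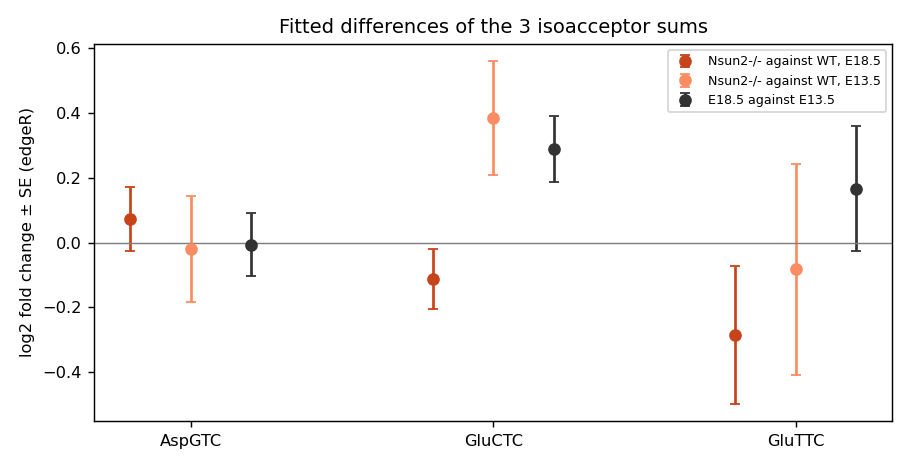
Points give the log2 fold change fitted by edgeR for each isoacceptor sum with its standard error, for Nsun2-/- against wild-type at E18.5 and at E13.5 and for E18.5 against E13.5 over both genotypes. Of the 9 differences drawn, only GluCTC between the stages passed the adjusted threshold. That call was lost without the wild-type sample at E13.5, where only Nsun2-/- embryos could be compared.

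Between the stages, the sums of AspGTC and GluTTC did not pass the test, while that of GluCTC did in a way that rested on single samples. The difference of AspGTC between E18.5 and E13.5 was small against its error (log2 difference over both genotypes -0.01, SE 0.10, adjusted p = 0.94 by edgeR). The log2 difference of GluTTC was 0.17 (SE 0.19, adjusted p = 0.53). GluCTC was higher at E18.5 by 0.29 on the log2 scale (SE 0.10, adjusted p = 0.022), so that 1 of 3 isoacceptors was called, where 40.4% of the 47 families were. The call was lost without E13.5 Nsun2-/- sample 1 (0.18). Without the E13.5 wild-type sample only Nsun2-/- embryos could be compared between the stages, and the call was lost as well (0.07, adjusted p = 0.79). The same contrast within Nsun2-/- embryos was 0.05 with that sample kept in the fit (adjusted p = 0.93). Wild-type samples at E18.5 differed from the single E13.5 wild-type sample by 0.52. The methods say that samples were multiplexed for sequencing, but not whether the stages shared a run or were prepared together, so stage and library batch cannot be told apart.

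Of the 9 copies that could be tested between stages 2 were called, compared with 28.4% of the 155 genes tested. Raw counts of chr10.trna856-AspGTC were 52 in wild-type and 71 and 41 in Nsun2-/- samples at E13.5. At E18.5 they were 75, 80, 70 and 66 in wild-type and 53, 57, 60 and 39 in Nsun2-/- samples. Totals at E18.5 were 5387 to 5924 in wild-type and 4011 to 5027 in Nsun2-/- samples. Every Nsun2-/- total thus lay below every wild-type total, and raw counts of the genotypes cannot be compared directly. At E13.5 totals were 5481 to 9827. Normalised to the library, chr10.trna856-AspGTC was higher at E18.5 by 0.66 on the log2 scale (SE 0.13, adjusted p = 0.00031). With each E13.5 sample left out in turn the difference was 0.53 to 0.60, and the call remained. Leaving out the wild-type sample left a comparison of Nsun2-/- embryos only. In the fit of all 11 samples the difference within Nsun2-/- embryos was 0.58 (adjusted p = 0.015). Against the single E13.5 wild-type sample, assumed to vary like the other groups, it was 0.73 (adjusted p = 0.014). The other called copy was chr10.trna81-GluCTC (0.36, SE 0.13, adjusted p = 0.045). Its call was lost without E13.5 Nsun2-/- sample 1 (0.13). It was also lost within Nsun2-/- embryos. There the difference was 0.14 in the fit without the E13.5 wild-type sample (adjusted p = 0.59) and 0.13 in the fit of all 11 samples (adjusted p = 0.67).

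The second AspGTC copy, chr13.trna84, had a log2 difference of the opposite sign that did not pass the adjustment (-0.31, SE 0.13, adjusted p = 0.082). It led AspGTC in all 3 samples at E13.5, with 92, 51 and 72 counts against 71, 41 and 52 for chr10.trna856. In 8 of 8 samples at E18.5 chr10.trna856 had the higher count of the 2 copies. No test was made of this order.

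The share of chr10.trna856 in AspGTC was compared sample by sample. It was 29.4% in wild-type and 28.0% and 33.3% in Nsun2-/- samples at E13.5, and at least 42.1% in each sample at E18.5. The means were 30.2% ± 2.8 (SD, n = 3) and 47.0% ± 5.7 (SD, n = 8) without overlap. No test of this share is given, because the copy leads AspGTC through its counts at E18.5, 500 of its 664. The main GluCTC copy, chr10.trna81, led GluCTC in every sample. Its share was 92.1%, 88.0% and 92.8% at E13.5 and between 93.4% and 97.0% at E18.5, without overlap. Means were 91.0% ± 2.6 (SD, n = 3) and 95.2% ± 1.3 (SD, n = 8), with an exact permutation p = 0.012, the smallest this design allows. No adjusted p is given, because the adjustment over 6 values included the test of the chr10.trna856 share. The difference is therefore not called. Within Nsun2-/- samples the GluCTC shares did not overlap between the stages either, but 4 against 2 samples cannot give a p below 0.13. The tests of shares between stages were chosen after their values had been seen.

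**Figure D5:**
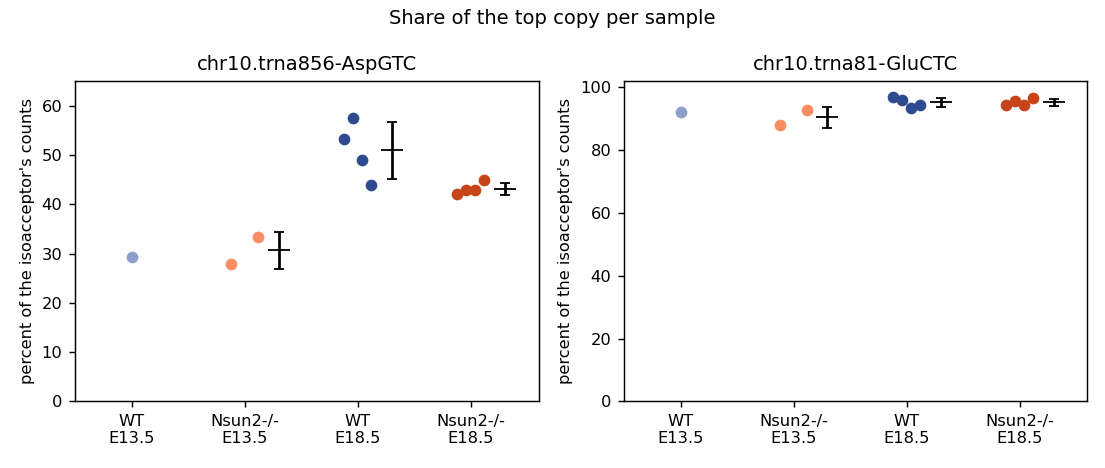
Points give the percent of AspGTC counts held by chr10.trna856 (left) and of GluCTC counts held by chr10.trna81 (right) in each sample, with mean ± SD in black where a group has more than 1 sample. In both panels all 8 samples at E18.5 lie above the 3 samples at E13.5.

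All aspartate and glutamate tRNAs together made up 7.82% ± 0.67 (SD, n = 3) of the counts at E13.5 and 9.05% ± 0.54 (SD, n = 8) at E18.5 (exact permutation p = 0.024). Here too the adjustment included the test of the chr10.trna856 share, so no adjusted p is given and the difference is not called. The difference of 1.23 percentage points was 1.12 without E13.5 Nsun2-/- sample 1 and 0.96 without the E13.5 wild-type sample, and neither passed the test (exact permutation p = 0.089 each). Within Nsun2-/- samples it was 0.73 (exact permutation p = 0.27, smallest possible p 0.13).

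Minor copies had too few counts for the filter. Without it, 4 of the 24 members with counts were called between the stages, where 15.9% of the 315 genes with counts were. The 2 additional copies are named here after their values were seen. For chr13.trna979-AspGTC the counts were 10, 2 and 7 at E13.5 and between 0 and 3 at E18.5 (log2 difference -2.28, SE 0.61, adjusted p = 0.0023 by edgeR). For chr9.trna961-GluTTC they were 7, 6 and 11 at E13.5 and between 1 and 6 at E18.5 (-1.48, SE 0.46, adjusted p = 0.011). Both were lower at E18.5, on low counts.

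Aspartate and glutamate tRNAs were also set beside families that share a modification or a related amino acid. Between the genotypes at E18.5, 13.3% of the 45 families tested were called. Of the 3 known DNMT2 substrates, GlyGCC was lower in Nsun2-/- at E18.5 (log2 fold change -0.36, adjusted p = 0.0077 by edgeR), while AspGTC and ValAAC (0.11, adjusted p = 0.68) did not pass. The median of these 3 was 0.07, compared with -0.02 over all 45 families. Of the 4 queuosine tRNAs, HisGTG was higher in Nsun2-/- at E18.5 (0.29, adjusted p = 0.012), with a median of 0.03 for the 4. None of the 3 tRNAs with a thiolated wobble uridine, GluTTC, GlnTTG and LysTTT, was called at E18.5, and their median was -0.08. The tRNAs of the amides asparagine and glutamine, AsnGTT, GlnCTG and GlnTTG, also gave 0 calls of 3 in that comparison (median -0.08). No family of these lists was called at E13.5, where 0% of the 47 families tested were called.

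Between the stages these relatives moved in both directions, where 40.4% of the 47 families tested were called. AsnGTT was higher at E18.5 (0.37, adjusted p = 0.0036 by edgeR). So was GluCTC in the main fit, but its call was lost without E13.5 Nsun2-/- sample 1 or the E13.5 wild-type sample. All stage differences of the relatives rested on the same few E13.5 samples, of which 1 was wild-type. GlnCTG (-0.94, adjusted p = 9.1e-10), GlnTTG (-0.29, adjusted p = 0.036), LysTTT (-0.28, adjusted p = 0.0097) and HisGTG (-0.45, adjusted p = 5.3e-05) were lower. AspGTC and its fellow DNMT2 substrates GlyGCC (0.05) and ValAAC (-0.01) had differences close to the median of -0.01 over all 47 families. The queuosine tRNA TyrGTA did not pass either (0.02, adjusted p = 0.91 by edgeR).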

How the data were processed

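The authors deposited raw counts of reads per tRNA gene, 1 file per sample, made with featureCounts 1.4.4 after trimming, alignment with bowtie to unique best positions and a second alignment of reads without their CCA ends. Per the file headers the annotation was of mm9, whereas the methods name mm10, and this was not resolved. No genome of that build was used here. Groups came from the sample labels. Counts were tested per gene and summed per isoacceptor with edgeR 4.0.16 (R 4.3.3), with TMM normalization, a minimum count of 10 (filterByExpr) and Benjamini-Hochberg adjustment at 0.05 over all features tested. The standard error was taken as the size of the log2 fold change over the root of F. E18.5 genotypes were fitted on 8 samples and other contrasts on all 11 in 4 groups. Single values were compared by two-sided exact permutation tests (scipy 1.17.1). Scripts were tested on simulated data. Alternatives were DESeq2 1.42.0, other normalizations, no filter, a replicate block, merged samples and each sample left out. Total counts of 4011 to 9827 per sample limit the precision of low copies.

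The members and the lists of related families were chosen with earlier results of these data known. Named copies are the 3 with most counts per isoacceptor, those called in any comparison, and up to 5 per isoacceptor without counts. Reads printed are the representative full-length reads listed for a copy in the study's supplementary tables. Samples were not treated as paired by their numbers. At E18.5, deviations of same-numbered samples correlated between -0.10 and 0.25, and those of differently numbered samples between -0.30 and 0.39. So few correlations cannot settle whether samples were paired.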

Additional observations from a re-analysis of the deposited data

Results flagged for a closer look

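Of the 38 sets of values tested, 3 held a sample far from the others of its group, where chance gives about 1 in 20. Nsun2-/- sample 4 at E18.5 had an AspGTC share of 2.17% of all tRNA counts, compared with 2.78% to 2.83% in the other 3 samples. In the same sample chr10.trna856-AspGTC took 0.972% of all counts, compared with 1.19% to 1.21% in the others. Wild-type sample 1 at E18.5 had the highest share of chr10.trna851-AspGTC, 0.186% against 0.0675% to 0.0732%, which stands for 10 counts against 4 in each of the others.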

How the results depend on the processing

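At E18.5 no alternative brought any of the 3 isoacceptors or a copy past the threshold. With no filter the differences of AspGTC and GluCTC at E18.5 were 0.13 and -0.06. The share of the main GluCTC copy differed between genotypes by 0.013 percentage points, by -0.36 with the closest samples merged, and by -0.56 to 0.62 with single samples left out. The difference of AspGTC at E13.5 was 0.030 by DESeq2, 0.019 with the replicate block and -0.112 to 0.044 with single samples left out. GluCTC at E13.5 ranged from 0.178 to 0.605 with single samples left out. AspGTC between the stages was 0.046 by library size only, 0.0030 by DESeq2, 0.059 in a fit of Nsun2-/- samples only, 0.052 as a contrast within Nsun2-/-, and -0.039 to 0.067 with single samples left out. GluCTC between the stages was 0.065 in a fit of Nsun2-/- samples only and 0.054 as a contrast within Nsun2-/-, with 0.071 to 0.391 when single samples were left out. The number of copies called between the stages was 4 with no filter and 1 to 2 with single samples left out. In these fits between the stages, leaving out the E13.5 wild-type sample left a comparison of Nsun2-/- embryos only. Among single values, the log2 ratio of GluCTC to GluTTC between the stages ranged from -0.110 without the E13.5 wild-type sample to 0.252 without E13.5 Nsun2-/- sample 2 and was -0.043 in Nsun2-/- samples only, and that of AspGTC to glutamate tRNAs was 0.0055 in Nsun2-/- samples only. The E18.5 genotype difference of chr14.trna359-GluTTC ranged from -0.024 without wild-type sample 4 to 0.547 without wild-type sample 2, and the E13.5 difference of chr10.trna856-AspGTC was 0.0062 by DESeq2 and 0.0023 with no filter. The cause of these changes was not tested. The replicate block changed no call on a member. Over all features at E18.5, 6 families were called in the main test (4 higher, 2 lower), 6 with no filter (5 higher, 1 lower) and 1 with upper-quartile scaling. Of single genes 10 were called (6 higher, 4 lower), 8 by DESeq2 (6 higher, 2 lower), 7 with no filter (5 higher, 2 lower) and 4 with upper-quartile scaling (1 higher, 3 lower), which moved the median gene by -0.10 on the log2 scale. Counts per copy are low, so differences of minor copies were mostly not detectable at this depth.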
